A study of Mus musculus with 9 samples.

Results

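The genes described here encode the proteins of the cytosolic ribosome. Members were the protein-coding genes whose symbol is Rpl or Rps followed by a digit, or is Rpsa, Rplp0, Rplp1 or Rplp2. Rows named as pseudogenes (-ps) and the ribosomal S6 kinase genes were left out. This gave 86 members among 55487 gene IDs. Of these, 77 are the standard subunit and stalk genes, 8 are paralogs or variants of one of them, and Rps19bp1 is not a ribosomal protein gene and entered by its symbol. The members were measured as poly(A) RNA in naive CD4+ T cells (helper T cells that antigen has not yet activated) from the spleens of wild-type (WT) C57BL6/J mice. The 9 libraries form groups of 3: cells of mice given anti-IL-1b, an antibody against the inflammatory cytokine IL-1b, in vivo for 10 days in a row; cells of mice given MCC950, an inhibitor of the inflammasome sensor NLRP3, for the same 10 days; and cells of untreated mice. The labels state no dose, vehicle, control antibody, age, sex, batch, sorting gate or mouse of origin. Since separate mice are not stated either, a p-value here speaks only for the spread among the libraries of a group, which may be technical.

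Each cytosolic ribosome is built from a small subunit, which reads the mRNA, and a large subunit, which joins the amino acids and carries a stalk of acidic proteins that recruits elongation factors. Most ribosomal protein mRNAs of vertebrates begin with a run of pyrimidines, the 5′ terminal oligopyrimidine (TOP) motif, through which the kinase mTOR and the RNA-binding protein Larp1 control their translation and stability. Naive T cells keep a low rate of protein synthesis and raise it on activation, with new ribosomes made after that.

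Total expected counts ran from 14775375 to 21394797 per library. The 10 markers of naive CD4+ T cells summed to 6658 to 6668 CPM (counts relative to the TMM-scaled library size) in anti-IL-1b libraries, 6182 to 6191 CPM in MCC950 libraries and 6747 to 6840 CPM in untreated libraries, so the labelled cell type matched its markers. Genes of heat shock and handling stress set the untreated libraries apart: their 23 members summed to 8562 to 8802 CPM with anti-IL-1b and 10044 to 10189 CPM with MCC950, against 33786 to 34219 CPM in untreated libraries, and 22 of 23 passed the test as lower in each comparison with untreated cells. B cell markers, all 11 higher with either agent, summed to 475 to 493, 468 to 482 and 320 to 340 CPM in the anti-IL-1b, MCC950 and untreated groups. Most of that sum was Ighm. The other 10 summed to 92.6 to 103.5 CPM with anti-IL-1b, 103.0 to 115.6 CPM with MCC950 and 19.2 to 28.3 CPM in untreated cells. Neutrophil markers summed to 33.0 to 34.8 CPM with anti-IL-1b, 17.0 to 19.3 CPM with MCC950 and 1.10 to 1.34 CPM in untreated cells, with S100a8, Retnlg, Camp, Ltf and Mmp8 at 0 in untreated libraries. Cytotoxic and NK cell markers summed to 90.7 to 97.8 CPM with anti-IL-1b, 94.1 to 97.9 CPM with MCC950 and 63.8 to 69.5 CPM in untreated cells. Among them Prf1 averaged 36.9, 42.5 and 45.8 CPM and Cd8a 19.4, 19.6 and 0.969 CPM in the anti-IL-1b, MCC950 and untreated groups. Myeloid markers summed to 18.1 to 19.9 CPM with anti-IL-1b, 19.7 to 22.0 CPM with MCC950 and 7.91 to 9.63 CPM in untreated cells, and red cell markers to 4.38 to 5.02, 5.91 to 9.68 and 0.122 to 0.452 CPM in the anti-IL-1b, MCC950 and untreated groups. The part of these differences in the results below was not tested. In bulk RNA, fewer cells of a type and less RNA per cell cannot be told apart.

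Ribosomal protein mRNAs were the smallest share of the RNA in anti-IL-1b libraries and the largest in MCC950 libraries. They held 8.992%, 9.107% and 9.018% of the expected counts in the anti-IL-1b libraries, 9.966%, 9.696% and 9.785% in the MCC950 libraries, and 9.344%, 9.481% and 9.488% in the untreated libraries. The 3 groups did not overlap, in the order MCC950, untreated, anti-IL-1b. By TPM, a measure of transcript number that divides by length, the members made up 28.5% ± 0.117 of anti-IL-1b, 30.3% ± 0.254 of MCC950 and 29.7% ± 0.0828 of untreated libraries (SD, n = 3 each), in the same order. The split between the subunits moved as well: small subunit genes took 43.29% to 43.6% of the members' counts with anti-IL-1b, 44.14% to 44.31% with MCC950 and 43.88% to 43.95% in untreated cells, again without overlap.

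**Figure D1:**
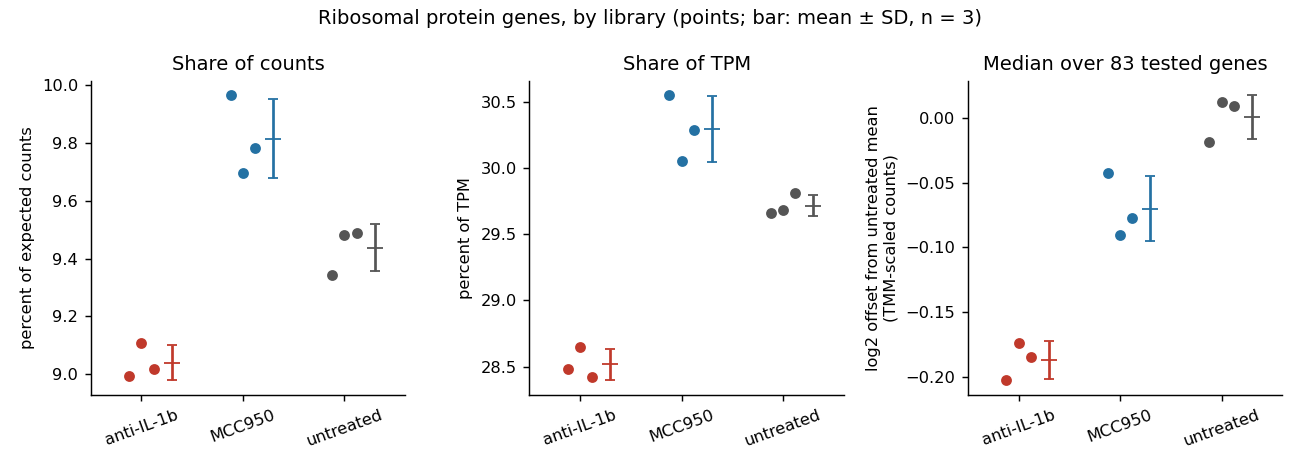
Ribosomal protein genes in each of the 9 libraries: percent of expected counts (left), percent of TPM (middle) and the median log2 offset of the 83 tested genes from the untreated mean after TMM scaling (right). Points are libraries and bars the mean ± SD (n = 3). The anti-IL-1b libraries are lowest in all 3 panels, while MCC950 libraries lie above untreated ones by share and below them after TMM scaling, so that direction depends on the scaling.

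The share and the TMM-scaled level differ because TMM, which assumes that most genes do not change between libraries, gave factors of 1.031 to 1.035 to anti-IL-1b, 1.023 to 1.024 to MCC950 and 0.945 to 0.947 to untreated libraries. Scaling to library totals moves the median log2 fold change of all 13374 tested genes up to 0.13 for anti-IL-1b against untreated and 0.12 for MCC950 against untreated, and to 0.014 for anti-IL-1b against MCC950. Counts of members past the threshold against untreated cells are therefore given below with both scalings. Counts of members whose groups do not overlap are after TMM only. Values of single genes are after TMM unless another scaling is named.

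Members differed widely in level. Rpl13a, a large subunit gene whose protein also silences mRNAs after interferon gamma in human myeloid cells, was the most abundant per length, with a mean of 13512 TPM over the 9 libraries. It was followed by Rps27, with 10986 TPM, Rps14, with 9298 TPM, and the stalk gene Rplp1, with 9054 TPM. The lowest of the 77 standard members was Rpl39, at 1105 TPM. All paralogs and variants lay below it: Rpl36al at 713 TPM, Rpl22l1 at 507 TPM, Rps27rt at 229 TPM, Rpl7l1 at 52.8 TPM and Rps27l at 47.3 TPM. Rpl39l averaged 0.463 TPM and Rpl3l 0.013 TPM, and Rpl10l had 0 counts in every library. These 3 genes were too low to test, which left 83 members.

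The starts of the transcripts are shown for 7 members that later comparisons single out, both those that were lower and those that were higher with MCC950, because the TOP motif is the feature these mRNAs are known for. The sequences are from RefSeq (GRCm38.p6), cover 30 bases around the annotated start and run 5′ to 3′ on the gene's strand. The annotated start is the base just past the middle of each window. Capitals mark the longest run of C or T anywhere in the window. Of the marked runs only that of Rps27 spans the annotated start. That of Rps12 lies after it and the others lie before it, so the capitals do not mark TOP motifs at the annotated start. Shorter unmarked runs span the start in Rps15a (tcttccctc) and Rpl31 (cctcccc).
Rps27: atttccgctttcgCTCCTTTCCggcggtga
Rpl34: cgCCTTCCCTgacgtacttcctgtccggcg
Rpl31: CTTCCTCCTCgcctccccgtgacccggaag
Rps15a: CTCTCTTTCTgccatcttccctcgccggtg
Rps12: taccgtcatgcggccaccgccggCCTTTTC
Rpl9: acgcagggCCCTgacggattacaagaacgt
Rps3: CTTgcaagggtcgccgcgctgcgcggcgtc
They lie on the minus strand at chr3:90213634-90213663 (Rps27), chr3:130730384-130730413 (Rpl34), chr7:118116133-118116162 (Rps15a), chr10:23787195-23787224 (Rps12), chr5:65391417-65391446 (Rpl9) and chr7:99483695-99483724 (Rps3), and on the plus strand at chr1:39367836-39367865 (Rpl31). The marked runs are 9, 8, 10, 10, 7, 4 and 3 bases long in the order printed. Runs at the start itself were not compared between members. Over the 16 members with an entry that were named for the size of their change, the longest runs span 2 to 10 bases, with 7 of at least 7 bases. Among these longest runs, long and short ones occur both in members that were lower and in members that were higher with MCC950. RefSeq starts are annotations, not caps measured in these cells, and the GENCODE start can differ, by 66 bases for Rps12. Among the 16 members, it differs by 3553 bases for Rps24 and by 1947 bases for Rps2. Of 86 members 66 had a promoter entry of 300 bases, 250 before and 50 after the start. For members the entry nearest the GENCODE start was taken, and for all promoters the first entry listed per symbol, so the shares below rest on unlike choices. A run of C or T of at least 8 bases lay in the 30 bases around the start in 37.9% of these members, against 11.9% of all 27025 promoters. The letters CTTTCC, read on the gene's strand, were in 36.4% of members and 14.0% of all promoters. CCGGAAG, a motif of ETS factors searched on both strands, was in 37.9% and 9.12%, and GGGCGG, the Sp1 motif, in 60.6% and 35.9%. TATAAA was in 9.09% of members and 14.2% of all promoters. The longer CTCTTTCC, which contains CTTTCC, was in 10.6% and 1.45%, and AAGATGG, a motif of YY1, in 13.6% and 6.48%.

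After TMM scaling, naive CD4+ T cells of anti-IL-1b-treated mice had lower levels of nearly every ribosomal protein mRNA than those of untreated mice. Of the 83 tested members, 74 fell and 1 rose (edgeR's quasi-likelihood test, Benjamini-Hochberg adjusted p under 0.05), where 18.5% of all tested genes fell and 15.4% rose. The median log2 fold change was -0.18, against 0.003 over all genes and -0.051 over 2203 other genes of at least 100 CPM. Of those 2203 genes, 883 fell and 454 rose after TMM, and 449 fell and 1019 rose with library totals. With library totals 38 members fell and 4 rose, with a median of -0.053 against 0.13 over all genes, where 10.1% of all genes fell and 29.3% rose. These scalings differ by a single factor per library, which shifts all genes by about the same amount. The distance to the median gene is therefore the same under both by construction, and only the size of the fall changes. With TPM, 21 members fell and 6 rose, with a median of -0.049. The share of all genes called with TPM was not worked out, so these counts have no background beside them. By TMM-scaled CPM, all 3 anti-IL-1b libraries lay below all 3 untreated libraries for 75 members and above them for 2. The same held for 22.8% and 20.4% of all genes. These counts were not made with library totals. Both subunits took part: 29 of 31 small subunit genes, 41 of 43 large subunit genes and 2 of 3 stalk genes fell after TMM, and none of these 77 rose. With library totals 17 of 31 small subunit genes, 18 of 43 large subunit genes and 1 of 3 stalk genes fell, and 1 large subunit gene and 1 stalk gene rose. Under 6 scalings (TMM, RLE, TMM computed without these genes, upper quartile, library totals and TPM) 20 members were lower each time, as were 6.04% of all genes.

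**Figure D2:**
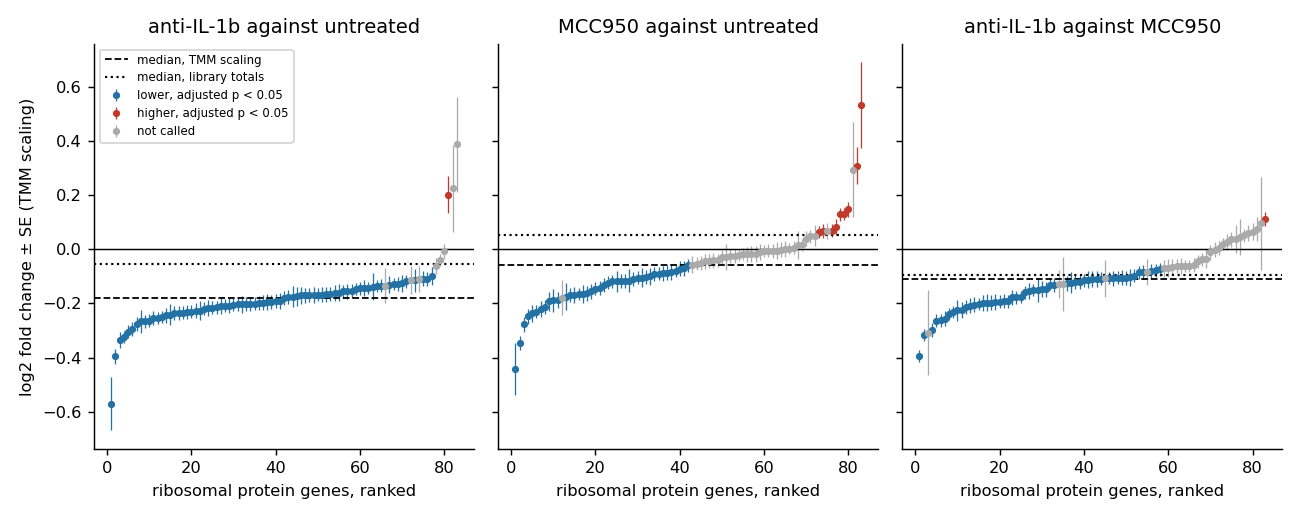
Log2 fold changes ± SE of the 83 tested ribosomal protein genes after TMM scaling, ranked within each comparison, with the median after TMM scaling (dashed) and after scaling to library totals (dotted). In the anti-IL-1b comparisons both medians lie below 0, at -0.18 and -0.053 against untreated and at -0.11 and -0.097 against MCC950. For MCC950 against untreated they have opposite signs, -0.060 and 0.053.

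Among the 77 standard members the largest falls with anti-IL-1b were in Rps27, Rpl34 and Rps14; the variant Rps27rt, described with the paralogs, had a larger log2 fold change of -0.57. Rps27, which encodes a zinc-finger protein of the small subunit (chromosome 3), had 841, 863 and 882 CPM in the anti-IL-1b libraries, against 1099, 1154 and 1149 CPM in the untreated libraries. Its log2 fold change was -0.40 ± 0.03 (SE, adjusted p = 4.53e-15). Rpl34, a large subunit gene (chromosome 3), had 516, 518 and 525 CPM with anti-IL-1b, against 642, 645 and 680 CPM in untreated cells, at -0.34 ± 0.03 (adjusted p = 9.19e-12). The groups did not overlap for either gene, and both were among the 20 members lower under every scaling. Rps14, a protein of the platform of the small subunit whose human gene lies in the region lost in the 5q- syndrome, had 1918, 1900 and 1856 CPM with anti-IL-1b, against 2355, 2346 and 2406 CPM in untreated cells, at -0.32 ± 0.02 (adjusted p = 4.04e-15).

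Further members of the same 20 were Rpl9, Rpl17 and Rps24. Rpl9 had 1061, 1070 and 1046 CPM with anti-IL-1b and 1280, 1330 and 1313 CPM in untreated cells (log2 fold change -0.30 ± 0.02, adjusted p = 3.03e-13). Rpl17, a protein at the exit tunnel for the new chain, had 1151, 1138 and 1179 CPM with anti-IL-1b and 1410, 1412 and 1432 CPM in untreated cells (-0.29 ± 0.02, adjusted p = 6.34e-13). Rps24, one of the genes mutated in human Diamond-Blackfan anaemia, had 1247, 1275 and 1340 CPM with anti-IL-1b and 1544, 1588 and 1543 CPM in untreated cells (-0.28 ± 0.03, adjusted p = 1.29e-11). Each of these sets of 3 libraries lay wholly below the untreated ones.

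Members with known separate roles fell as well. Rps6, the substrate of the ribosomal S6 kinases, fell by 0.25 ± 0.02 on the log2 scale (adjusted p = 6.65e-12), and Rps19, the gene most often mutated in Diamond-Blackfan anaemia, fell by 0.27 ± 0.03 (adjusted p = 3.27e-11). Rpl5 and Rpl11, which with the 5S RNA can bind the p53 regulator Mdm2, had log2 fold changes of -0.23 and -0.23 (adjusted p = 1.77e-10 and 8.36e-09). Rpl10, a late-joining large subunit protein mutated in some human T cell leukaemias, changed by -0.20 (adjusted p = 4.97e-08), Rps27a, which is made as a fusion with ubiquitin, by -0.18 (adjusted p = 6.98e-07), and Rpl22, which mice need for alpha-beta T cell development, by -0.17 (adjusted p = 7.46e-05). Rps6 and Rps19 were lower under all 6 scalings, while the calls of the other 5 genes did not hold under all of them. With library totals Rpl5, Rpl11 and Rpl10 were at -0.10, -0.10 and -0.076 (adjusted p = 4.42e-04, 0.00267 and 0.0194) and lost their calls with TPM, and Rps27a and Rpl22 were at -0.050 and -0.048 (adjusted p = 0.125 and 0.277). Rpl38, needed in mice for normal patterning of the axial skeleton, changed by -0.14 (adjusted p = 0.0403), with 227 to 256 CPM in anti-IL-1b and 252 to 284 CPM in untreated libraries, which overlap. With library totals Rpl38 was at -0.012 (adjusted p = 0.882). Without untreated replicate 2, untreated replicate 3 or anti-IL-1b replicate 1 its adjusted p was 0.142, 0.136 or 0.161. Rpsa and Rpl13a changed by -0.14 and -0.14 (adjusted p = 1.83e-06 and 4.29e-06), and with TPM their log2 fold changes were 0.030 and 0.045.

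A few members did not follow. Rplp0, the base of the stalk, had 3211, 3144 and 3021 CPM with anti-IL-1b and 3183, 3176 and 3274 CPM in untreated cells, which overlap (log2 fold change -0.039 ± 0.022, adjusted p = 0.186). With library totals its log2 fold change was 0.088 (edgeR, adjusted p = 0.00155) and with TPM 0.12 (limma, adjusted p = 0.0140). Rplp0 thus passed as higher under both, and its sign depended on the scaling. Rpl28 had 788, 789 and 789 CPM with anti-IL-1b, inside the untreated values of 801, 785 and 793 CPM (-0.0083 ± 0.028, adjusted p = 0.859). Rps29, a short zinc-finger protein of the small subunit, varied between libraries, with 591, 627 and 667 CPM with anti-IL-1b and 638, 739 and 691 CPM in untreated cells (-0.13 ± 0.07, adjusted p = 0.164). Without untreated replicate 1 it was -0.18 with an adjusted p of 0.00391. Rpl41 and Rps20 had log2 fold changes of -0.12 and -0.063 (adjusted p = 0.124 and 0.107). Rpl28 and Rps20 were named after their values were seen.

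With MCC950 the ribosomal protein genes split, and the direction of most small changes depended on the scaling. After TMM scaling 41 of 83 members were lower and 9 higher than in untreated cells, where 19.1% of all genes were lower and 17.7% higher, while with library totals 10 were lower and 37 higher, where 11.9% and 29.9% of all genes were. The median was -0.060 after TMM and 0.053 with library totals. That of the 2203 other genes of at least 100 CPM was -0.060 and 0.053 as well. Of those 2203 genes, 952 were lower and 511 higher after TMM, and 587 lower and 925 higher with library totals. Without untreated replicate 2, 5 members were higher after TMM. By TMM-scaled CPM, the MCC950 libraries lay below all untreated ones for 41 members and above them for 10. The same held for 23.8% and 23.6% of all genes. Leaving out MCC950 or untreated libraries one at a time gave 31 to 42 lower members. The anti-IL-1b and MCC950 comparisons share the untreated libraries. Under all 6 scalings 8 members were lower (7.41% of all genes were) and 9 were higher (12.4% of all genes).

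**Figure D3:**
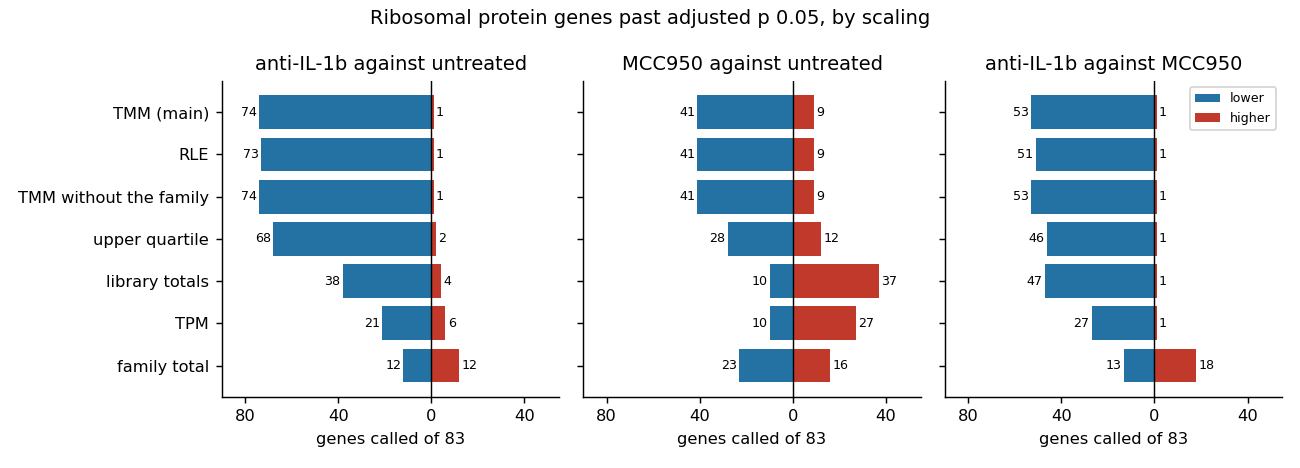
Number of the 83 tested ribosomal protein genes past an adjusted p of 0.05 as lower (left of 0) or higher (right of 0), for 7 ways of scaling the libraries; the last sets each library's size to the members' own total. Anti-IL-1b libraries had more lower than higher members under the first 6 scalings in both of their comparisons, while the MCC950 comparison with untreated cells changes from 41 lower and 9 higher under TMM to 10 lower and 37 higher with library totals.

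The 8 members lower with MCC950 under every scaling were Rpl17, Rpl27, Rpl3, Rpl31, Rpl9, Rps24, Rps27 and Rps27rt. Rpl17 had 1120, 1099 and 1128 CPM with MCC950, against 1410, 1412 and 1432 CPM in untreated cells (log2 fold change -0.35 ± 0.02, adjusted p = 5.95e-15). Rps27 had 976, 923 and 965 CPM with MCC950, against 1099, 1154 and 1149 CPM in untreated cells (-0.25 ± 0.03, adjusted p = 1.33e-09). Both sets of MCC950 libraries lay below all untreated ones. Rpl27, Rpl9, Rpl31 and Rps24 had log2 fold changes of -0.24, -0.23, -0.22 and -0.21, and Rpl3, a protein next to the peptidyl transferase centre, of -0.17 (adjusted p from 4.55e-10 to 9.05e-08).

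The 9 members higher with MCC950 under every scaling, a smaller share than the 12.4% of all genes, were the small subunit genes Rps2, Rps3, Rps3a1, Rps12 and Rps15a, the large subunit gene Rpl37a, the stalk gene Rplp0 and the paralogs Rpl7l1 and Rps27l. Rps3, a protein at the mRNA entry site that is also known in DNA repair, had 2702, 2682 and 2697 CPM with MCC950, against 2489, 2407 and 2488 CPM in untreated cells (log2 fold change 0.13 ± 0.02, adjusted p = 1.46e-05). Rps2, which lies at the same entry site, had 2081, 2033 and 2031 CPM with MCC950, against 1873, 1861 and 1889 CPM in untreated cells (0.13 ± 0.02, adjusted p = 4.65e-05). Rps15a had 830, 815 and 829 CPM with MCC950, against 738, 757 and 738 CPM in untreated cells (0.15 ± 0.03, adjusted p = 5.05e-05). The MCC950 libraries lay above every untreated library for these genes. Rplp0, Rps12 and Rps3a1 were higher by less, with log2 fold changes of 0.069, 0.067 and 0.063 (adjusted p = 0.0137, 0.0374 and 0.0308). Their calls depended on single libraries: without untreated replicate 2 the adjusted p was 0.0736 for Rplp0, 0.0718 for Rps12 and 0.0602 for Rps3a1. Leaving out untreated replicate 1, MCC950 replicate 1 or MCC950 replicate 3 also ended the call of Rps12, and leaving out untreated replicate 3, MCC950 replicate 2 or MCC950 replicate 3 that of Rps3a1.

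Several members with known separate roles did not pass with MCC950 after TMM, and with library totals they were higher. Rps14 had 2410, 2322 and 2341 CPM with MCC950, among the untreated values of 2355, 2346 and 2406 CPM, with a log2 fold change of -0.0069 after TMM (adjusted p = 0.848) and 0.11 with library totals. The log2 fold change of Rps6 was -0.019 after TMM and 0.094 with library totals, that of Rpl11 -0.019 after TMM and 0.094 with library totals, that of Rpl10 -0.0059 and 0.11, and that of Rpl5 -0.053 and 0.060. Rps19 changed by -0.17 after TMM (adjusted p = 9.02e-07) and was at -0.056 with library totals (adjusted p = 0.0717). Rpl22, at -0.11 after TMM (adjusted p = 0.0127), was at 0.0081 with library totals, and its call was lost without untreated replicate 2, MCC950 replicate 2 or MCC950 replicate 3 (adjusted p = 0.105, 0.128 and 0.0533).

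Set against each other, the anti-IL-1b libraries had lower ribosomal protein mRNAs than the MCC950 libraries, with a median below 0 under 6 scalings, while the number of calls depended on the scaling. Of 83 members 53 were lower and 1 higher with anti-IL-1b, where 7.11% of all genes were lower and 6.12% higher, and the median log2 fold change was -0.11 against 0.0008 over all genes. With library totals 47 were lower and 1 higher (6.14% and 7.01% of all genes), with a median of -0.097. With TPM 27 were lower, with a median of -0.078, and again the share of all genes was not worked out. Of 2203 other genes of at least 100 CPM, 390 were lower and 437 higher after TMM, and 344 and 508 with library totals. Under all 6 scalings 26 members were lower and none higher with anti-IL-1b, where 1.40% of all genes were lower and 2.24% higher each time. Without MCC950 replicate 1, which had the highest share of these mRNAs, 40 were lower and 2 higher. By TMM-scaled CPM, the anti-IL-1b libraries lay below all MCC950 libraries for 60 members and above them for 3, against 15.4% and 14.0% of all genes. Of 31 small subunit genes 20 were lower and 1 higher, of 43 large subunit genes 29 were lower and of 3 stalk genes 3.

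The largest differences between the agents were in Rps3, Rps14 and Rps12, which were lower with anti-IL-1b under every scaling. Rps3 had 2122, 2024 and 2004 CPM with anti-IL-1b, against 2702, 2682 and 2697 CPM with MCC950, a log2 fold change of -0.39 ± 0.02 (adjusted p = 3.24e-16). For Rps14 the values were 1918, 1900 and 1856 CPM with anti-IL-1b and 2410, 2322 and 2341 CPM with MCC950 (-0.32 ± 0.02, adjusted p = 8.83e-14). For Rps12 they were 862, 868 and 872 CPM with anti-IL-1b and 1085, 1038 and 1076 CPM with MCC950 (-0.30 ± 0.03, adjusted p = 2.42e-11). The groups were well apart for each of these genes, with untreated cells near the MCC950 values for Rps14 and between the agents for Rps3 and Rps12. Rps3a1 and Rps2 had log2 fold changes of -0.26 and -0.26 (adjusted p = 4.17e-11 and 1.40e-10).

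**Figure D4:**
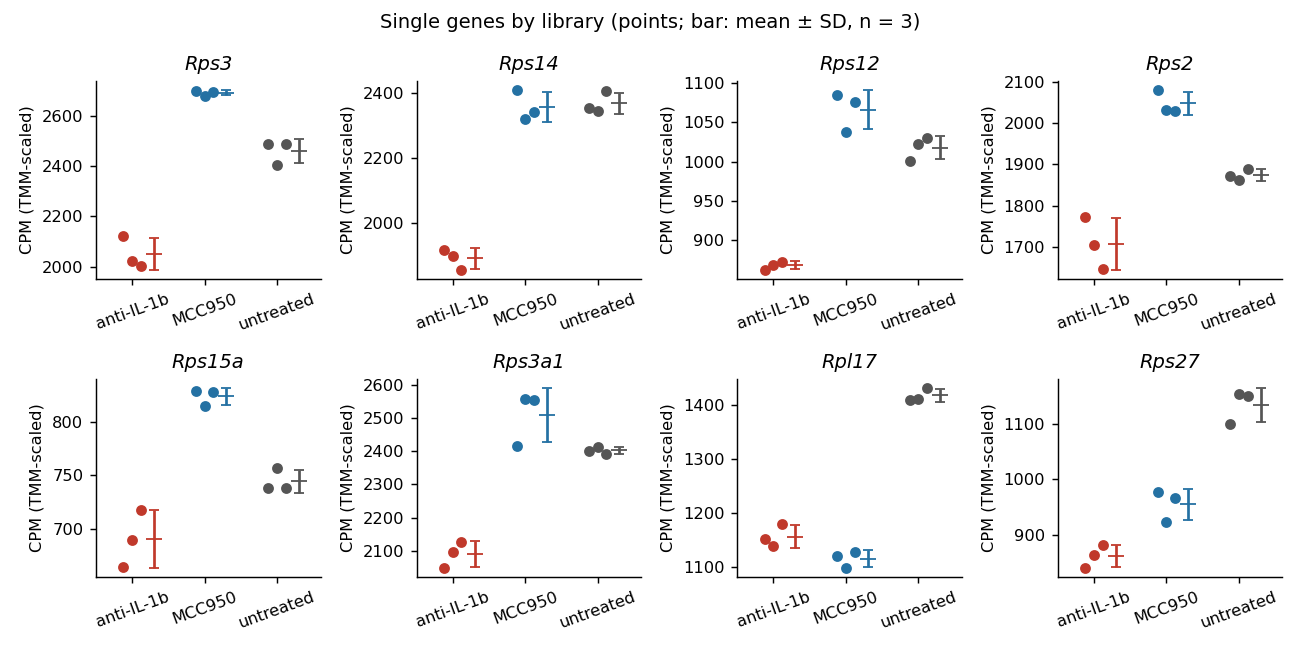
TMM-scaled CPM of 8 ribosomal protein genes in each library (points; bar, mean ± SD, n = 3); the vertical axes do not start at 0. Anti-IL-1b libraries are lowest for Rps3, Rps14, Rps12, Rps2, Rps15a, Rps3a1 and Rps27. MCC950 libraries are highest for Rps3, Rps12, Rps2, Rps15a and Rps3a1 and lowest for Rpl17.

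To see the make-up of the family, each library's size was set to its own sum of ribosomal protein counts, a further scaling, chosen after the data were seen, that centres the family near 0. A value of 0 then means that a gene moved with the family. Between anti-IL-1b and untreated cells 12 members were lower and 12 higher than the family (7.56% and 37.2% of all genes were), between MCC950 and untreated cells 23 and 16 (14.7% and 23.0%), and between anti-IL-1b and MCC950 13 and 18 (1.84% and 22.0%). Rps27, Rpl17 and Rpl9 were below the family with both agents, with log2 values of -0.21, -0.11 and -0.12 for anti-IL-1b against untreated and -0.19, -0.29 and -0.17 for MCC950 against untreated (adjusted p at most 8.92e-04). These comparisons share the untreated libraries. Rplp0 was above the family with both agents, at 0.15 for anti-IL-1b and 0.13 for MCC950 against untreated (adjusted p = 9.05e-07 and 2.40e-05). Rps14 stood below the family with anti-IL-1b (-0.14, adjusted p = 6.32e-06) and at 0.050 with MCC950 (adjusted p = 0.0887). Rps3 stood at -0.075 with anti-IL-1b (adjusted p = 0.0132) and at 0.19 with MCC950 (adjusted p = 7.06e-08), and between the agents at -0.26 (adjusted p = 1.17e-10). Rpl28 was above the family with anti-IL-1b by 0.18 (adjusted p = 2.19e-06) and stood at 0.011 with MCC950 (adjusted p = 0.800).

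**Figure D5:**
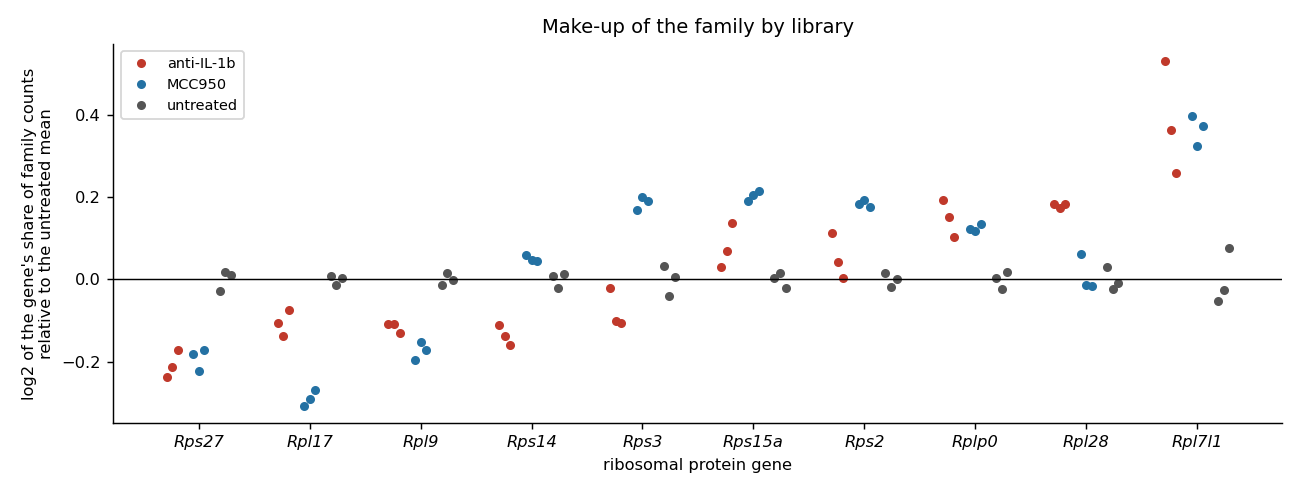
Share of all ribosomal protein counts taken by each of 10 genes in each library, as log2 relative to the untreated mean; points are libraries. Rps27, Rpl17 and Rpl9 lie below 0 with both agents, Rplp0 and Rpl7l1 above 0 with both, and Rps3 and Rps14 separate the anti-IL-1b from the MCC950 libraries.

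The paralogs and variants did not all follow the genes they resemble. Rps27rt, a near-copy of Rps27 on chromosome 9, had 19.1, 20.6 and 21.8 CPM with anti-IL-1b, 23.6, 22.0 and 21.6 CPM with MCC950 and 28.4, 31.6 and 31.1 CPM in untreated cells. Its log2 fold changes of -0.57 ± 0.10 for anti-IL-1b and -0.44 ± 0.10 for MCC950 against untreated (adjusted p = 1.05e-05 and 3.05e-04) went the way of Rps27. The values of these genes are uncertain as a pair, because 91.1% of the 50-base windows of the Rps27rt transcript also occur in Rps27, with a longest shared run of 341 bases, so that reads cannot always be told apart. Their starts show it, with the beginning of a shared run in capitals (RefSeq, GRCm38.p6, minus strand, chr3:90213623-90213652 and chr9:114982715-114982744).
Rps27: cgctcCTTTCCGGCGGTGACGACCTCCCTA
Rps27rt: ccttgCTTTCCGGCGGTGACGACCTCCCTA
The other paralogs share no 50-base window with their parent gene.

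Rps27l, a paralog of Rps27 that p53 induces in human cells, went the other way. It had 8.78, 8.82 and 8.98 CPM with anti-IL-1b, 12.2, 9.39 and 11.3 CPM with MCC950 and 7.43, 7.27 and 8.05 CPM in untreated cells. It was higher with MCC950 (log2 fold change 0.53 ± 0.16, adjusted p = 0.00666) and did not pass with anti-IL-1b (0.22 ± 0.16, adjusted p = 0.301). Rpl7l1, a paralog of Rpl7, was the 1 member that rose with anti-IL-1b, with 69.7, 62.6 and 57.8 CPM, and had 71.0, 65.5 and 68.5 CPM with MCC950 and 52.6, 54.4 and 58.4 CPM in untreated cells. The anti-IL-1b and untreated values overlap (0.20 ± 0.07, adjusted p = 0.0197), and the call was lost without anti-IL-1b replicate 1, untreated replicate 1 or untreated replicate 2 (adjusted p = 0.210, 0.0745 and 0.0628). With MCC950 it rose by 0.31 ± 0.07 (adjusted p = 3.12e-04), while its parent Rpl7 stood at -0.041 (adjusted p = 0.179). Rpl36al, a paralog of Rpl36a, fell by 0.27 ± 0.04 with anti-IL-1b (adjusted p = 4.34e-06), beside -0.17 for Rpl36a. Rpl22l1, the paralog of Rpl22, did not pass with anti-IL-1b (-0.11, adjusted p = 0.0679) or with MCC950 (-0.028, adjusted p = 0.687). Rps19bp1 had 11.9, 8.50 and 9.77 CPM with anti-IL-1b, 11.7, 9.34 and 7.24 CPM with MCC950 and 7.43, 8.45 and 7.16 CPM in untreated cells, and passed in no comparison after TMM.

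Rows named as ribosomal protein pseudogenes, 289 in all, summed to 471 ± 0.720 CPM with anti-IL-1b, 512 ± 7.96 CPM with MCC950 and 681 ± 16.0 CPM in untreated cells (SD, n = 3 each). Relative to the members they were fewer in both treated groups, with 0.539, 0.534 and 0.683 counts per 100 member counts in the anti-IL-1b, MCC950 and untreated groups. Of 51 such rows that could be tested 20 were lower and 1 higher with anti-IL-1b, and 14 and 1 with MCC950, against untreated cells. Of all tested genes 18.5% were lower and 15.4% higher with anti-IL-1b, and 19.1% and 17.7% with MCC950. Processed pseudogenes resemble their parent mRNA, so which copy a read came from is uncertain. Adding these counts to the members left the counts of lower members within 1.5 times.

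Genes that work with the ribosome were lower in part. Fau and Rack1, which encode ribosomal proteins outside the symbol rule, fell with anti-IL-1b, by 0.16 and 0.17 (adjusted p = 2.30e-05 and 3.68e-07), calls that were lost with library totals. Of 22 other TOP mRNAs of translation 16 fell and none rose with anti-IL-1b (median -0.17) and 13 fell and 1 rose with MCC950 (median -0.12). Over all genes 18.5% fell and 15.4% rose with anti-IL-1b, and 19.1% fell and 17.7% rose with MCC950. With library totals 8 of the 22 fell and 4 rose with anti-IL-1b (10.1% and 29.3% of all genes), and 8 fell and 8 rose with MCC950 (11.9% and 29.9%). Tpt1, an abundant TOP mRNA, stood at 4095 ± 39.6 CPM with anti-IL-1b, 4119 ± 14.3 CPM with MCC950 and 4991 ± 66.5 CPM in untreated cells. Hnrnpa1, an RNA-binding protein gene, changed by -0.38 with anti-IL-1b and -0.23 with MCC950, and Eif4a2, an initiation helicase gene, by -0.40 with anti-IL-1b and -0.34 with MCC950. Snhg8, a host gene of a small nucleolar RNA, changed by -0.81 with anti-IL-1b and -0.83 with MCC950.

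For ribosome assembly factors and regulators, the shares of all genes to set beside the counts are 18.5% lower and 15.4% higher with anti-IL-1b and 19.1% and 17.7% with MCC950 after TMM, and 10.1% and 29.3% with anti-IL-1b and 11.9% and 29.9% with MCC950 with library totals. Of 52 tested assembly factors 18 fell and 4 rose with anti-IL-1b after TMM, while with library totals 8 fell and 11 rose. With MCC950 10 fell and 8 rose after TMM, and 6 fell and 24 rose with library totals, so the TMM counts with MCC950 were near the shares of all genes. In the comparison of the agents 12 were lower and none higher with anti-IL-1b than with MCC950, with a median of -0.094 (10 and 0 with library totals), where 7.11% of all genes were lower and 6.12% higher. Nop56, a core protein of box C/D particles, changed by -0.28 with anti-IL-1b and -0.16 with MCC950, and Zfp622, a factor of the large subunit, by -0.55 with anti-IL-1b and -0.32 with MCC950. Mdn1, the giant ATPase of large subunit maturation, rose by 0.34 with anti-IL-1b and 0.31 with MCC950. Among 33 tested regulators of ribosomal protein mRNA 12 fell and 6 rose with anti-IL-1b after TMM and 7 fell and 14 rose with library totals, and with MCC950 these counts were 12 and 7 after TMM and 9 and 12 with library totals. After TMM, Larp1 changed by -0.18 with anti-IL-1b and -0.22 with MCC950. The transcription factor gene Sp1 changed by -0.37 with anti-IL-1b and -0.57 with MCC950, Yy1 by -0.32 with anti-IL-1b and -0.22 with MCC950, and Myc by -0.30 with anti-IL-1b and -0.26 with MCC950. Rps6kb2, an S6 kinase gene, rose by 0.89 with anti-IL-1b and 1.04 with MCC950. Eif4g1 and Eif4ebp2 of the same list rose as well, by 0.22 and 0.13 with anti-IL-1b and by 0.26 and 0.19 with MCC950. Related genes of the list went the other way. Eif4g2 changed by -0.34 with anti-IL-1b and -0.36 with MCC950. Eif4e changed by -0.23 with anti-IL-1b and did not pass with MCC950 (-0.089). Larp1, Yy1, Myc, Eif4g1, Eif4ebp2, Eif4g2 and Eif4e were named after their values were seen. Of 78 tested mitochondrial ribosomal protein genes, a separate set, 6 fell and 8 rose with anti-IL-1b and 3 fell and 16 rose with MCC950 after TMM, and with library totals 2 fell and 22 rose with anti-IL-1b and 0 fell and 34 rose with MCC950. Mitochondrially encoded RNAs took 2.09% to 2.30% of the counts with anti-IL-1b, 1.77% to 1.81% with MCC950 and 2.15% to 2.24% in untreated cells, and the mean fragment length was 214 to 223, 225 to 232 and 221 to 231 bases in the anti-IL-1b, MCC950 and untreated groups. The 40 shorter members of at least 100 CPM had a median log2 fold change of -0.20 with anti-IL-1b and the 39 longer ones of -0.18. With MCC950 these medians were -0.10 for the shorter and -0.053 for the longer members, and between the agents -0.12 and -0.11. The part of fragment length in the results was not tested beyond this.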

How the data were processed

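Poly(A) RNA of 9 libraries was grouped by the labels into 3 anti-IL-1b, 3 MCC950 and 3 untreated libraries. Per the submitters' processing notes, the authors used STAR and RSEM with the mm10 build, with no versions stated. Per the file headers, the deposited expected counts are RSEM's estimated reads per gene, in which a read matching several genes is shared between them, and the deposited TPM values relate these to effective length. Lengths and effective lengths are in bases, per the file headers, and served to describe members. The sources used here do not say whether strand entered the counting.

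Symbols came from GENCODE M21 (GRCm38, the same build as mm10), which matched 99.5% of IDs, and promoters from RefSeq. Expected counts were rounded and tested with edgeR 4.0.16 in R 4.3.3 (quasi-likelihood, robust, TMM, filterByExpr, group means over the 9 libraries), with Benjamini-Hochberg adjustment over 13374 genes and a threshold of 0.05. The common biological coefficient of variation was 0.0707. The test was checked on simulated counts with known changes. Named members are the largest changes past the threshold without overlap between groups, the most and least abundant, fixed roles and paralogs. Some genes that this rule names are not reported here. Alternatives were other scalings, filters, DESeq2 1.42.0, limma 3.58.1 (voom, and TPM with pseudocounts of 1 and 0.1), a replicate block and leaving out each library. The members and all lists were chosen with earlier results of these data known.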

Additional observations from a re-analysis of the deposited data

How the results depend on the processing

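The count of lower members was within 1.5 times under RLE, TMM computed without the family, both filters, DESeq2, limma-voom, the fit without the robust option, fits on 6 libraries and pseudogene counts added, in all 3 comparisons. Shares of all genes called were not worked out for TPM, upper-quartile scaling or the fits with 1 library left out. For anti-IL-1b against untreated, library totals gave 38 lower and 4 higher with a median of -0.053, TPM 21 and 6 with a median of -0.049 at both pseudocounts, and the family total 12 and 12 with 0.0089. Upper-quartile scaling gave 2 higher and a median of -0.13, a threshold of 0.10 gave 2 higher, and the 77 standard members gave 0 higher. With 1 library left out, 71 to 75 were lower, 0 to 1 higher and the median -0.19 to -0.18. For MCC950 against untreated, library totals gave 10 lower and 37 higher with a median of 0.053, TPM 10 lower and 27 or 28 higher with 0.0245, the family total 23 and 16 with -0.0036, and upper-quartile scaling a median of -0.023. With 1 library left out, 31 to 42 were lower, 5 to 9 higher and the median -0.077 to -0.047. For anti-IL-1b against MCC950, TPM gave 27 or 28 lower, up to 2 higher and a median of -0.078, the family total 13 and 18 with 0.022, and DESeq2 2 higher. With 1 library left out, 40 to 51 were lower, 1 to 2 higher and the median -0.13 to -0.088. The shares were 9.24%, 9.996% and 9.65% without mitochondrially encoded genes and 28.5%, 30.3% and 29.7% of TPM in the anti-IL-1b, MCC950 and untreated groups, and with 1 library left out 9.01% to 9.06%, 9.74% to 9.88% and 9.41% to 9.49%.

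Signs of single genes turned with the scaling, and the cause was not tested beyond the shift of the median gene. For anti-IL-1b against untreated, library totals gave 0.0084 for Rpl7 and 0.088 for Rplp0, and TPM gave 0.045 for Rpl13a, 0.020 for Rpl7, 0.12 for Rplp0 and 0.030 for Rpsa. For MCC950 against untreated, library totals gave 0.11 for Rpl10, 0.094 for Rpl11, 0.0081 for Rpl22, 0.013 for Rpl36a, 0.060 for Rpl5, 0.072 for Rpl7, 0.10 for Rplp2, 0.11 for Rps14, 0.094 for Rps6 and 0.032 for Rpsa. TPM gave 0.096 for Rpl10, 0.12 for Rpl11, 0.0068 for Rpl22, 0.017 for Rpl36a, 0.086 for Rps14, 0.083 for Rps6 and 0.018 for Rpsa.

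Deviations from the group means correlated at 0.011 to 0.066 for the 9 pairs of libraries with the same replicate number. They correlated at -0.074 to 0.03 for the 18 pairs with different numbers, 15 of them negative. Deviations cancel out within each group, so positive same-number values make the others negative on the whole. The negative values are thus no separate evidence. Of 9 libraries 7 correlated best with their own number in both other groups, a hint of a small shared deviation. All correlations were below 0.1, and the labels do not say that the replicate numbers pair libraries. With the replicate number as a block, 73 members were lower and 1 higher for anti-IL-1b against untreated, 39 and 8 for MCC950 against untreated, and 51 and 1 between the agents.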
